A study of Mus musculus with 6 samples.

Results

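The 45 genes described here encode the ligands, latent binding proteins, receptors, antagonists, SMAD proteins, corepressors and response genes of TGF-beta and BMP signalling. They were taken by symbol from a given list, which was chosen with earlier results of these data known. Each matched 1 of the 55487 genes in the tables, and the rule itself uses no measured value. They were followed in cultured chondrocytes, the resident cells of cartilage, which secrete its matrix, from knee cartilage of C57B/6 mice. All cultures had received extracellular vesicles (EVs), small membrane particles released by cells, for 24 h, dosed by protein at 10 µg/ml. The vesicles came from macrophages in 3 libraries, called M-EVs, and from LPS stimulated macrophages in 3 libraries, called M-LPS EVs, LPS being a bacterial cell wall component. Cultures without vesicles were not analysed here, so every difference is between the vesicle types. The series title concerns pyroptosis, a lytic form of cell death, in chondrocytes exposed to such vesicles, and cartilage breakdown in osteoarthritis.

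Ligands of the TGF-beta family bind paired type I and type II receptor kinases, which phosphorylate SMAD proteins that then enter the nucleus with Smad4. TGF-betas and activins signal mainly through Smad2 and Smad3, and most BMPs and some GDFs through Smad1, Smad5 and Smad9. Secreted antagonists trap ligands, and Smad6 and Smad7 shut the pathway off. In cartilage, BMPs and GDFs promote chondrocyte differentiation and joint formation, and TGF-beta signalling through Smad3 restrains hypertrophy.

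Expected counts summed to between 20239626 and 25712667 per library. Libraries of 1 group differed by more than sampling noise, with a chi-square per degree of freedom of 1.66 to 2.78, against 26.7 to 34.1 between groups. Nothing in the labels states whether replicates came from separate cultures or animals; p-values therefore reflect the spread among these 6 libraries, and that spread may be technical only. Chondrocyte markers were abundant: the 8 listed markers summed to 48930 to 49500 TPM (a level scaled by transcript length and by the library's total) with M-EVs and to 40720 to 41750 TPM with M-LPS EVs, and 7 of the 8 fell. The 7 macrophage markers summed to 30.6 to 32.6 TPM with M-EVs and to 40.0 to 45.7 TPM with M-LPS EVs, and 3 of 6 tested ones rose. Ptprc, the pan-leukocyte antigen, stood at or below 0.25 TPM in every library. The 7 fibroblast markers summed to 1004 to 1014 TPM and to 1184 to 1188 TPM; 2 rose (Dcn and Lum), 3 fell and 2 were not called. The 4 endothelial markers summed to at most 1.25 TPM in any library.

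Most of the 45 genes differed between the vesicle types, in both directions and mostly by small amounts. Of 44 genes with enough counts for the test, 15 rose with M-LPS EVs, 13 fell and 16 were not called (edgeR quasi-likelihood test, Benjamini-Hochberg adjusted p under 0.05 over all genes). That is 63.6% of the 44 genes, beside 31.6% called among all 14604 tested genes (16.4% higher and 15.2% lower). The list was chosen with earlier results of these data known, so this share is a description and no test of the pathway. The pathway genes also had more counts, with a median of 4581 over the 6 libraries against 2467 for all tested genes, and how far that bears on the share was not tested. Their median log2 fold change was 0.03, against 0.003 for all tested genes. Only Ltbp2 changed by at least 1 on the log2 scale; 7 of the called genes rose and 2 fell by at least 0.5, beside 5.12% and 2.66% of all tested genes (7.78% together). In a test against a change of 1.2-fold 8 members rose and 4 fell, beside 7.79% of all tested genes in either direction. CPM (counts scaled to a common library total after TMM) values of the groups stood apart, with no overlap, for 31 of the 44 genes, 16 higher and 15 lower, against 42.2% of all tested genes, 21.5% higher and 20.6% lower. Of these 31 genes 28 were called, and Tgfbr2, Bmp2 and Smad5 were not. Gdf6, a joint-forming BMP-type ligand, was the member without enough counts, with 17 counts over the M-EVs libraries and 16 over the M-LPS EVs libraries. By these calls members rose and fell within every role except the response genes, where 2 rose and none fell. Among the SMADs only Smad9 fell and among the corepressors only Skil, and DESeq2 called neither of these falls. In bulk RNA, fewer cells that express a gene and less RNA of it per cell cannot be told apart.

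**Figure D1:**
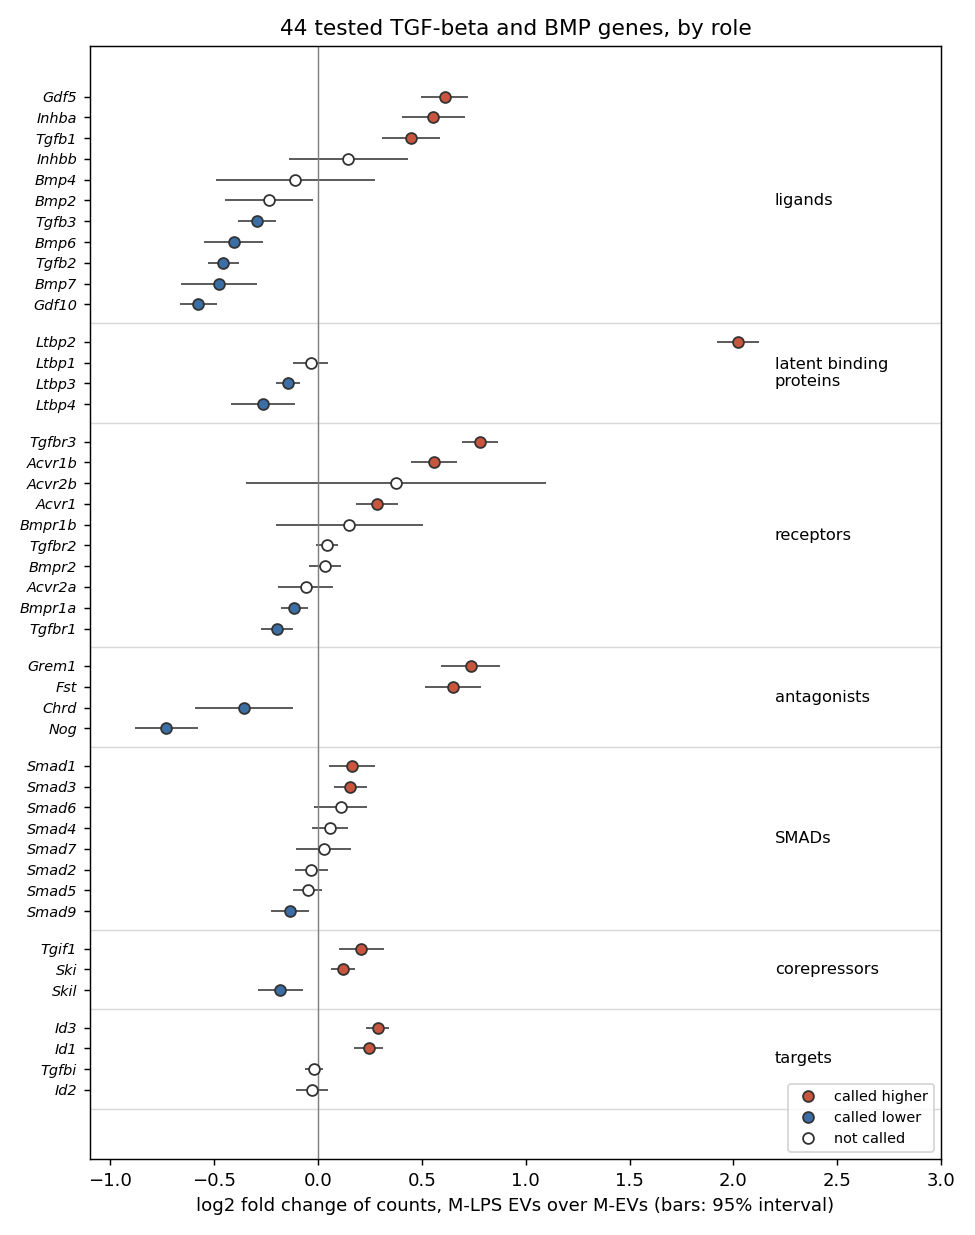
Log2 fold changes of counts, M-LPS EVs over M-EVs, for the 44 tested genes grouped by role, with 95% intervals from the edgeR fit. Red points were called higher, blue points lower and open points were not called. Ltbp2 stands alone at 2.02, while every other gene lies between -0.73 and 0.78.

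Promoter sequence was available for 32 of the 45 genes from RefSeq (GRCm38.p6, the assembly of mm10), as 44 windows of the 250 bases before an annotated start. Many windows overlap annotated exons, mostly of the same gene, and so can hold transcribed sequence. Some windows of 1 gene also overlap each other, as for Ltbp4, where the same GGCGCC is counted in more than 1 window. Both strands were searched for CAGAC, the SMAD box; for GGCGCC, a GC-rich BMP-SMAD motif; for TGACTCA, the AP-1 site; and for the NF-kB motif in its degenerate form. CAGAC was in 45.5% of the 44 windows and in 42.2% of all 32851 windows. GGCGCC was in 27.3% of them and in 9.59% of all, but the median GC content was 64.2% in these windows and 52.4% in all. TGACTCA was in none of the 44 windows and in 4.46% of all, and the NF-kB motif was in 6.82% and 7.25%, near the same share. The 3 genes with an NF-kB motif, Acvr1b, Tgfb1 and Tgif1, were all called higher, among 11 called higher that have a window. None of the 9 called lower and none of the 12 uncalled genes has one. Tgif1 has several windows, and not all of them hold the motif. With a share near that of all windows, this split of 3 genes is a description only. GGCGCC was in windows of 5 of those 9 genes, 2 of those 11 and 4 of 12 uncalled genes, and CAGAC in 5 of 9, 4 of 11 and 7 of 12. Such matches are descriptions and no evidence that a factor binds. The windows of 3 called genes are shown as examples, 5′ to 3′ on the gene's strand, with motif matches in capitals. Tgfb1 rose (chr7:25686752-25687001, plus strand, with 1 NF-kB motif 140 bases before the start). Grem1 also rose (chr2:113758649-113758898, minus strand, with CAGAC and GGCGCC 219 and 78 bases before the start). Gdf10 fell (chr14:33923337-33923586, plus strand, with CAGAC 98 bases before the start). The window of Ltbp2, the gene with the largest change, is not shown. It holds CAGAC 205 and 176 bases before the start. No matches overlap in these windows.
Tgfb1: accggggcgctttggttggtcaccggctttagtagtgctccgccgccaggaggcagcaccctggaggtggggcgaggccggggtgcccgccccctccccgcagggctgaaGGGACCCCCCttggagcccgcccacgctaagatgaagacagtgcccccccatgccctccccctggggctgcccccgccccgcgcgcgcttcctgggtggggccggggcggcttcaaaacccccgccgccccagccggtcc
Grem1: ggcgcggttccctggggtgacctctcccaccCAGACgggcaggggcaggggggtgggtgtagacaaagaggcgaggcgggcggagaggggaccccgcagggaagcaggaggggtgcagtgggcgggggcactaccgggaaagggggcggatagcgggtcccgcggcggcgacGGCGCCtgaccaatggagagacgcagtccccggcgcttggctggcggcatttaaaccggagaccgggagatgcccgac
Gdf10: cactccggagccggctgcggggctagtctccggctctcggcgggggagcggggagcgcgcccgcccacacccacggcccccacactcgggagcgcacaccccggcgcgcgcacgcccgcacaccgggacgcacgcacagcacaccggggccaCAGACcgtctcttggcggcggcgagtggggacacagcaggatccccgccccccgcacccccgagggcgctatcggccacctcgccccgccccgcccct

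Among the 11 tested ligands 3 rose, 5 fell and 3 were not called. The TGF-betas split: Tgfb1 rose, and Tgfb2 and Tgfb3 fell. Tgfb1 stood at 18.6, 16.0 and 19.1 CPM in the M-EVs libraries and at 25.7, 22.7 and 25.1 CPM in the M-LPS EVs libraries (log2 fold change 0.45, SE 0.07, adjusted p = 9.4e-06 by edgeR). Every M-LPS EVs library was above every M-EVs library. Macrophages also express Tgfb1, and of their 6 tested markers Adgre1, Itgam and Lyz2 rose. The other 3 were not called: Cd68 had a log2 fold change of 0.20, Csf1r of 0.15, with a TPM that was lower (1.47 and 0.917), and Mrc1 of -0.08. The part of these markers in the rise was not tested. Tgfb2 had 83.4, 86.2 and 86.7 CPM with M-EVs and 62.4, 63.3 and 60.8 CPM with M-LPS EVs (log2 fold change -0.46, SE 0.04, adjusted p = 1.6e-10 by edgeR). The groups stood well apart. Tgfb3 went from 40.2, 38.2 and 39.5 CPM to 33.1, 31.4 and 31.5 CPM (log2 fold change -0.30, SE 0.04), also without overlap. In TPM, which allows levels of different genes to be compared, Tgfb2 was at 2.08, 2.35 and 2.08 times the level of Tgfb1 with M-EVs and at 1.11, 1.32 and 1.12 times with M-LPS EVs. This ratio, like the others below, was chosen after the values were seen and is a description.

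The other ligands that rose were Inhba, the subunit of activin A, and Gdf5, a growth factor of joint formation and a susceptibility gene of osteoarthritis. Inhba had 10.2, 10.8 and 11.0 CPM with M-EVs and 16.1, 15.4 and 15.7 CPM with M-LPS EVs (log2 fold change 0.55, SE 0.07, adjusted p = 1.3e-06 by edgeR). Gdf5 had 18.4, 18.7 and 19.2 CPM with M-EVs and 29.5, 28.3 and 28.1 CPM with M-LPS EVs (log2 fold change 0.61, SE 0.05, adjusted p = 1.6e-09 by edgeR). Neither gene overlapped between groups, and in CPM the spread within a group was small beside the difference. In TPM Inhba was less even, with 3.37, 3.69 and 3.79 TPM and then 5.13, 6.06 and 4.38 TPM. Gdf10, also called Bmp3b, fell from 57.6, 56.8 and 55.4 CPM to 40.0, 35.8 and 38.2 CPM (log2 fold change -0.58, SE 0.04, adjusted p = 6.9e-11 by edgeR). With M-EVs its TPM was 1.28 ± 0.0505 times that of Gdf5, and with M-LPS EVs 0.561 ± 0.0223 times (mean ± SD, n = 3), so the order of these ligands turned around.

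Of the BMPs proper, Bmp6 and Bmp7 fell and Bmp2 and Bmp4 were not called. Bmp6, which is expressed by hypertrophic chondrocytes, had 20.01, 20.7 and 18.5 CPM and then 15.5, 13.9 and 15.3 CPM (log2 fold change -0.41, SE 0.07, adjusted p = 3.8e-05 by edgeR). Bmp7, an anabolic factor for cartilage, had 10.8, 11.0 and 10.6 CPM and then 7.27, 8.07 and 7.94 CPM (log2 fold change -0.48, SE 0.09, adjusted p = 0.00015 by edgeR). Both were lower in every M-LPS EVs library. Bmp2, an inducer of chondrogenesis, had 7.53, 7.94 and 7.98 CPM with M-EVs and 6.95, 6.34 and 6.61 CPM with M-LPS EVs. These groups do not overlap either, but the difference missed the threshold (log2 fold change -0.24, 95% interval -0.45 to -0.03, adjusted p = 0.081 by edgeR). Bmp4, with 169 and 146 counts over the groups, had a log2 fold change of -0.11 (95% interval -0.49 to 0.27), and Inhbb, the other activin subunit, one of 0.14 (-0.14 to 0.43). The interval of Bmp4 holds the change seen for Bmp7.

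**Figure D2:**
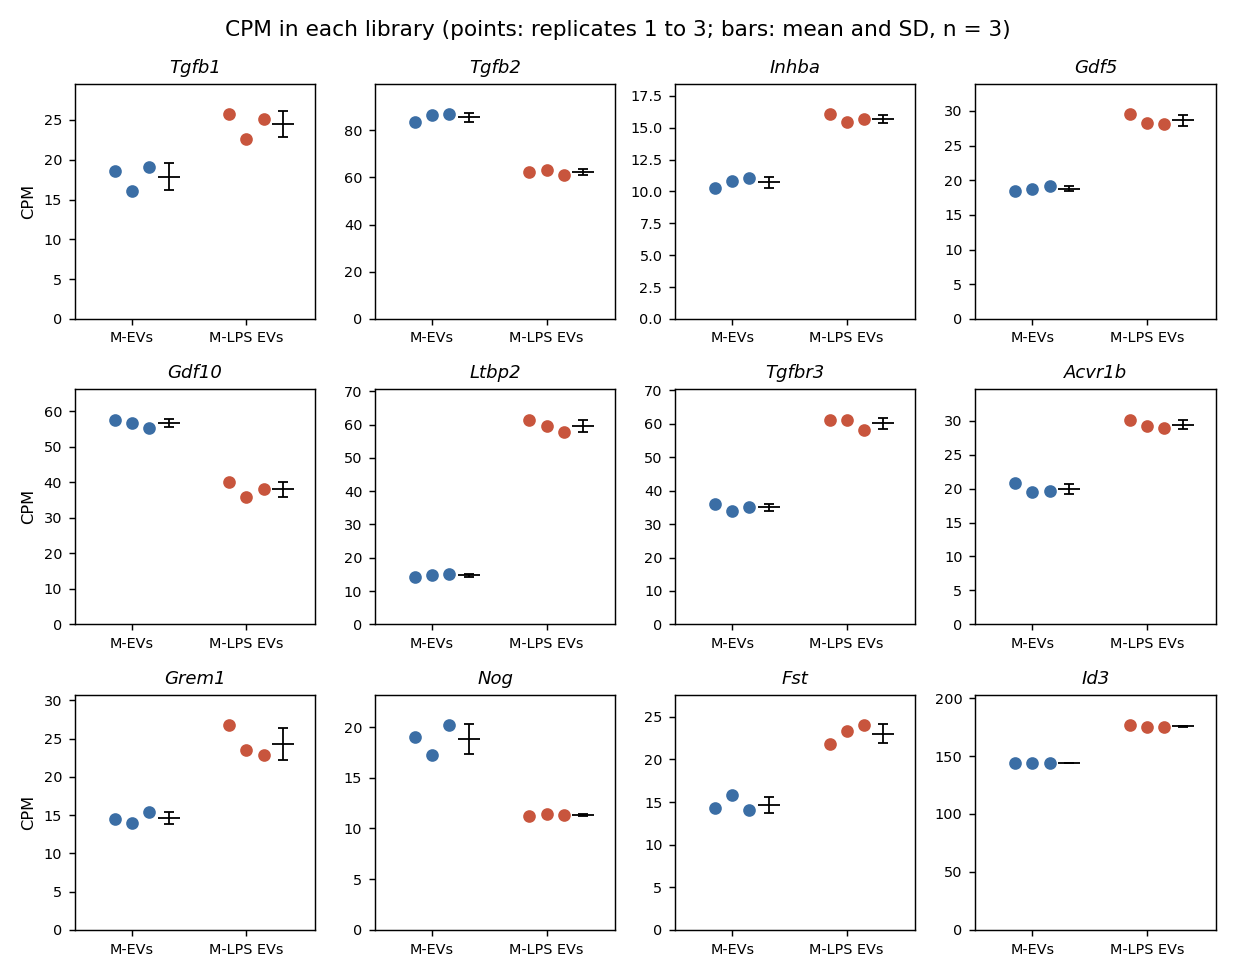
CPM of 12 genes in each library, with mean and SD at the right of each group (n = 3) and each vertical axis starting at 0. The groups do not overlap in any panel; Tgfb2, Gdf10 and Nog are lower with M-LPS EVs and the other 9 genes are higher.

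Latent TGF-beta binding proteins tether inactive TGF-beta to the matrix, except for LTBP2, which does not bind TGF-beta and acts in elastic and microfibril assembly. Ltbp2 (chr12:84783212-84876532, minus strand, mm10) had the largest change of all members. It stood at 14.1, 14.8 and 15.1 CPM with M-EVs and at 61.4, 59.5 and 57.9 CPM with M-LPS EVs, 4.06 times as high (log2 fold change 2.02, SE 0.05, adjusted p = 3.3e-21 by edgeR). In TPM, Ltbp1 was at 6.58 ± 0.216 times the level of Ltbp2 with M-EVs and at 1.58 ± 0.221 times with M-LPS EVs (n = 3). The fibroblast markers Dcn and Lum rose beside it, by 0.46 and 0.33 on the log2 scale, while Col1a2, Col1a1 and Thy1 fell by 0.35, 0.15 and 0.72 and Pdgfra and Postn were not called; their part in the rise was not tested.

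The other 3 family members did not rise. Ltbp1 was not called, with 71.7 to 76.6 CPM and 68.7 to 76.0 CPM in the groups (log2 fold change -0.04, 95% interval -0.12 to 0.05). Ltbp4 fell from 18.7, 17.0 and 17.8 CPM to 16.7, 13.7 and 14.3 CPM (log2 fold change -0.26, SE 0.07, adjusted p = 0.0081 by edgeR), a call that ended without M-EVs replicate 1, without M-LPS EVs replicate 2 and with the length offset described below. Ltbp3, the most abundant of the 4, fell from 218, 211 and 218 CPM to 193, 203 and 189 CPM (log2 fold change -0.15, SE 0.03, adjusted p = 0.00017 by edgeR). Its summed TPM did not show this, with 117, 122 and 124 TPM against 136, 114 and 107 TPM. In M-LPS EVs replicate 1, 22.9% of that TPM came from a retained-intron transcript of 156 bases with 2.13 expected counts over all 6 libraries. The 5190-base coding transcript had 55.9, 53.8 and 55.4 TPM and then 49.4, 52.4 and 48.5 TPM, without overlap.

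Among the 10 receptors 3 rose, 2 fell and 5 were not called. Tgfbr3, or betaglycan, a coreceptor that presents TGF-beta2 and inhibins, had 35.9, 33.9 and 35.2 CPM with M-EVs and 61.2, 61.0 and 58.2 CPM with M-LPS EVs (log2 fold change 0.78, SE 0.04, adjusted p = 6.0e-14 by edgeR). Acvr1b (ALK4), the type I receptor of activins, rose from 20.8, 19.5 and 19.6 CPM to 30.1, 29.2 and 28.9 CPM (log2 fold change 0.56, SE 0.05, adjusted p = 6.8e-09 by edgeR). Both were higher in every M-LPS EVs library. Acvr1 (ALK2), a BMP type I receptor, had 35.8, 34.4 and 35.2 CPM and then 43.1, 45.9 and 39.2 CPM (log2 fold change 0.28, SE 0.05, adjusted p = 6.5e-05 by edgeR); with the length offset the call ended (0.23, adjusted p = 0.063 by edgeR).

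The main TGF-beta receptors moved little. Tgfbr1 (ALK5), the type I receptor of TGF-beta, fell from 64.0, 62.5 and 64.2 CPM to 56.0, 53.9 and 56.4 CPM (log2 fold change -0.20, SE 0.04, adjusted p = 0.00016 by edgeR). Bmpr1a (ALK3), a type I receptor of BMPs, fell from 143, 136 and 145 CPM to 132, 127 and 132 CPM (log2 fold change -0.11, SE 0.03, adjusted p = 0.0062 by edgeR), a call that ended without M-EVs replicate 3, with the length offset (adjusted p = 0.25 by edgeR) and with limma-trend on TPM. Tgfbr2, the type II receptor, had 189 to 198 CPM and 200 to 201 CPM (log2 fold change 0.04, 95% interval -0.01 to 0.10), and Bmpr2 a log2 fold change of 0.03 (-0.04 to 0.11). Neither was called, and their intervals exclude changes of the size seen for Tgfbr3. Acvr2a had -0.06 (95% interval -0.19 to 0.07). For the scarce receptors Acvr2b, with 51 and 62 counts over the groups, and Bmpr1b, with 219 and 227, the intervals ran from -0.35 to 1.10 and from -0.20 to 0.51. The interval of Acvr2b holds 0 as well as the change seen for Acvr1b.

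All 4 antagonists changed, 2 up and 2 down. Grem1, or gremlin, which binds BMP2, BMP4 and BMP7 and is described as a brake on hypertrophy in articular cartilage, had 14.6, 13.9 and 15.4 CPM with M-EVs and 26.8, 23.5 and 22.8 CPM with M-LPS EVs (log2 fold change 0.73, SE 0.07, adjusted p = 3.8e-09 by edgeR). Fst, or follistatin, which binds activins, rose from 14.3, 15.8 and 14.0 CPM to 21.8, 23.3 and 24.0 CPM (log2 fold change 0.65, SE 0.07, adjusted p = 1.6e-08 by edgeR). Its ligand gene Inhba rose in the same libraries. Nog, or noggin, another BMP trap, fell from 19.0, 17.3 and 20.2 CPM to 11.3, 11.4 and 11.4 CPM (log2 fold change -0.73, SE 0.07, adjusted p = 1.3e-08 by edgeR), the largest fall of all members. Its SD over the M-LPS EVs libraries was 0.0757 CPM, against 1.46 CPM over the M-EVs libraries. Nog TPM was 3.46, 3.28 and 3.45 times that of Grem1 with M-EVs and 1.11, 1.28 and 1.32 times with M-LPS EVs. Summed over the 4 antagonists the groups overlapped, with 46.5 to 48.7 TPM and 48.6 to 50.3 TPM. Chrd, or chordin, had 7.61, 6.71 and 8.02 CPM and then 6.15, 6.09 and 5.19 CPM (log2 fold change -0.36, SE 0.11, adjusted p = 0.018 by edgeR), a call that ended without M-EVs replicate 1 or 3, without M-LPS EVs replicate 3, with DESeq2 and with the length offset.

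The 8 SMAD genes changed least, with log2 fold changes between -0.14 and 0.16. Smad1 and Smad3 rose, Smad9 fell and 5 were not called. Smad3, which carries TGF-beta signals, had 55.4, 52.9 and 53.1 CPM with M-EVs and 60.1, 60.7 and 58.9 CPM with M-LPS EVs (log2 fold change 0.15, SE 0.04, adjusted p = 0.0026 by edgeR). Its TPM summed over transcripts had a mean of 21.2 in both groups. Of the 24.7 TPM in M-EVs replicate 1, a transcript of 429 bases with 20.3 expected counts over all libraries held 5.14 TPM. The 5090-base transcript alone had 19.6, 18.8 and 19.0 TPM and then 21.4, 21.5 and 20.9 TPM, again without overlap. Smad1 had 22.9, 24.7 and 23.3 CPM and then 26.2, 26.5 and 26.5 CPM (log2 fold change 0.16, SE 0.05, adjusted p = 0.020 by edgeR), and Smad9 had 37.2, 38.1 and 38.4 CPM and then 34.8, 35.5 and 33.1 CPM (log2 fold change -0.14, SE 0.04, adjusted p = 0.021 by edgeR). The Smad1 call ended without M-EVs replicate 1 or 3 or M-LPS EVs replicate 2, and the Smad9 call without M-EVs replicate 2 or 3 or M-LPS EVs replicate 3. Both calls also ended with DESeq2, with the length offset and with limma-trend on TPM, and that of Smad9 with total counts only; the Smad3 call ended with the offset and limma-trend. Smad7, the inhibitory SMAD that TGF-beta induces, had 16.5, 16.1 and 16.0 CPM with M-EVs and 16.1, 16.9 and 16.5 CPM with M-LPS EVs (log2 fold change 0.03, 95% interval -0.11 to 0.16). Its groups overlapped. Smad6, the inhibitor of BMP signals, had 0.11 (95% interval -0.02 to 0.24), and the common partner Smad4 had 0.06 (-0.03 to 0.14). Smad2 and Smad5 had -0.03 (-0.11 to 0.05) and -0.05 (-0.12 to 0.02).

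The 3 corepressors, which hold SMAD targets silent, all changed by small amounts. Ski rose from 148, 145 and 143 CPM to 159, 156 and 158 CPM (log2 fold change 0.12, SE 0.03, adjusted p = 0.0012 by edgeR) and Tgif1 from 28.3, 24.8 and 27.0 CPM to 31.5, 30.9 and 30.2 CPM (log2 fold change 0.21, SE 0.05, adjusted p = 0.0034 by edgeR). Skil, or SnoN, itself a gene that TGF-beta induces, fell from 26.4, 26.0 and 26.2 CPM to 23.9, 22.7 and 22.8 CPM (log2 fold change -0.18, SE 0.05, adjusted p = 0.0091 by edgeR). DESeq2 did not call Skil.

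Of the 4 response genes Id1 and Id3 rose and Id2 and Tgfbi were not called. The Id genes encode inhibitors of basic helix-loop-helix factors and are classic BMP targets. Id1 had 85.3, 83.6 and 87.5 CPM with M-EVs and 103, 102 and 98.9 CPM with M-LPS EVs (log2 fold change 0.24, SE 0.03, adjusted p = 2.5e-06 by edgeR). Id3 had 144, 144 and 144 CPM and then 177, 175 and 175 CPM (log2 fold change 0.29, SE 0.03, adjusted p = 2.2e-09 by edgeR), with SDs of 0.0424 and 0.837 CPM. Id2 had 66.4 to 68.3 CPM and 64.2 to 67.3 CPM (log2 fold change -0.03, 95% interval -0.11 to 0.05). In TPM the level of Id3 was 2.12 ± 0.0437 times that of Id2 with M-EVs and 2.67 ± 0.0878 times with M-LPS EVs, and that of Id1 1.79 ± 0.0630 and 2.17 ± 0.0162 times (n = 3). Tgfbi, a matrix adhesion protein first found as a TGF-beta target, had a log2 fold change of -0.02 (95% interval -0.06 to 0.02).

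In TPM, 3 of the 4 response genes were the most abundant members, as the plot of levels shows. Tgfbi stood at 359 ± 4.73 TPM with M-EVs and 350 ± 5.11 TPM with M-LPS EVs, followed by Id3 (238 ± 1.81 and 290 ± 2.61 TPM) and Id1 (201 ± 5.32 and 236 ± 5.39 TPM). With M-EVs 5 genes lay at or above 100 TPM, 25 between 10 and 100 TPM, 13 between 1 and 10 TPM and 2, Acvr2b and Gdf6, below 1 TPM. The TGF-beta type II receptor Tgfbr2 was the most abundant receptor, at 69.9 ± 0.613 and 70.4 ± 1.30 TPM. Tgfb2 was the most abundant ligand in both groups, at 35.2 ± 0.790 and 26.1 ± 0.964 TPM. Gdf5 (23.4 ± 0.686 TPM) and Tgfb1 (22.1 ± 1.32 TPM) came close to it only with M-LPS EVs. The 6 highest genes kept their ranks, while Ltbp2 moved from rank 38 to rank 24 of 45, and Nog from 16 to 26. The summed level of the 12 ligands was 135 to 139 TPM and then 126 to 132 TPM, that of the 8 SMADs 184 to 193 TPM and 183 to 189 TPM, and that of the 10 receptors 199 to 209 TPM and 213 to 216 TPM. Of these 3 sums, that of the SMADs overlapped between groups.

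**Figure D3:**
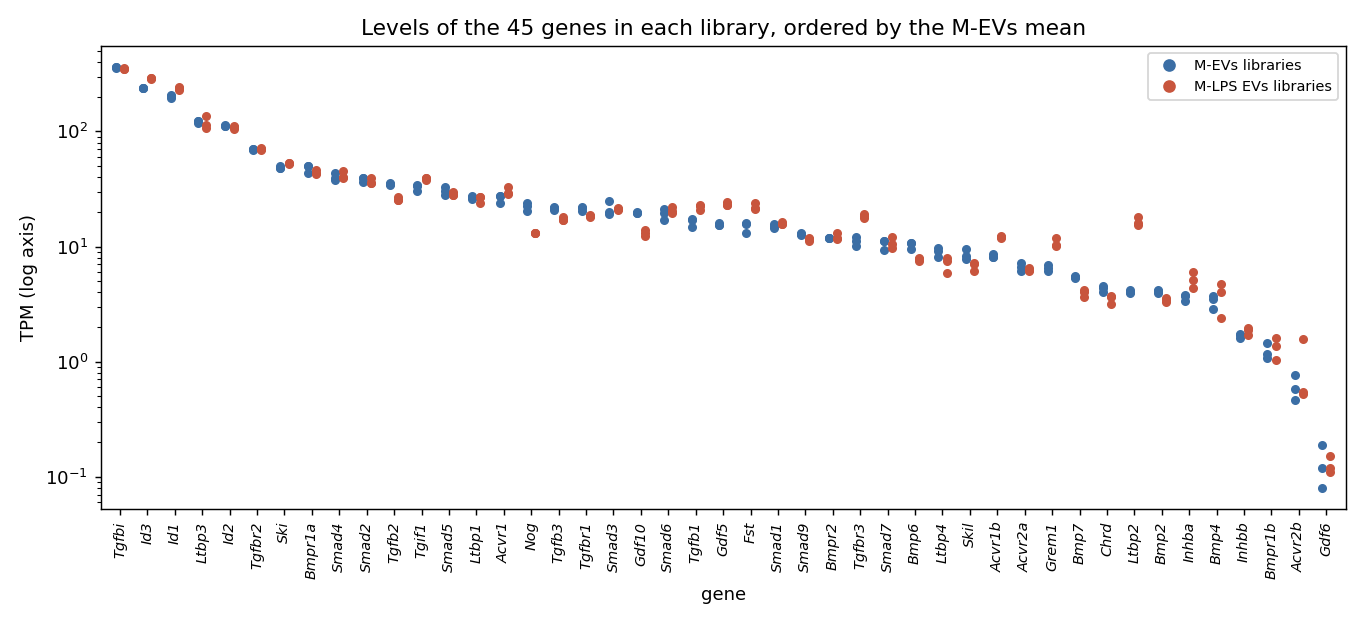
TPM of the 45 genes in each library on a log axis, ordered by the M-EVs mean. Levels run from Tgfbi at 359 TPM to Gdf6 at 0.130 TPM, and Ltbp2, at 4.08 and 16.5 TPM, shows the widest gap between groups among genes above 1 TPM.

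RSEM assigns reads to transcripts, and a gene's count depends on the lengths of the transcripts it uses. With each library's effective gene length as an offset, 20 of the 28 calls were made again and no other gene was called; Ltbp3, Ltbp4, Acvr1, Bmpr1a, Chrd, Smad1, Smad3 and Smad9 were lost, and all 28 genes had the same sign. For Ltbp3 and Smad3 the log2 fold change went to -0.01 and 0.02, which stands beside the short transcripts described above. The other lost genes kept more of their change or all of it: with the offset Ltbp4 had -0.32, Smad9 -0.14, Bmpr1a -0.10, Acvr1 0.23, Chrd -0.27 and Smad1 0.11. Among the tested members 17 had at least 2 transcripts with 10% or more of their gene's TPM, 42 transcripts in all. The shares of 5 of these transcripts did not overlap between groups, or 11.9%, near the 11.7% among such transcripts of all tested genes. One was a coding Fst transcript of 1113 bases, with 31.8%, 29.8% and 31.8% of Fst TPM with M-EVs and 25.5%, 23.2% and 20.1% with M-LPS EVs.

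**Figure D4:**
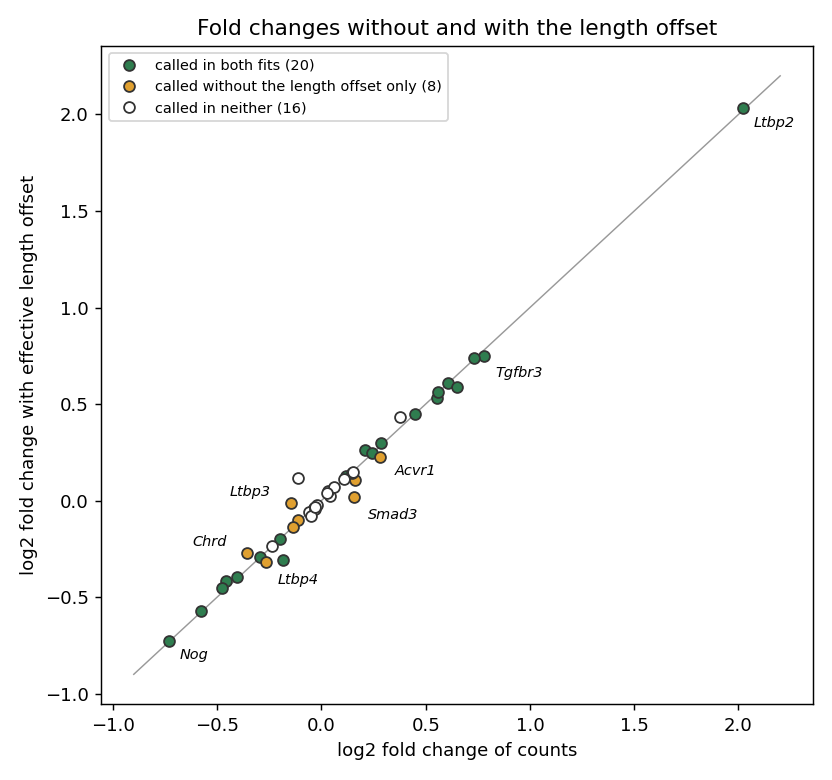
Log2 fold changes of the 44 tested genes without (horizontal) and with (vertical) the effective length offset, on the diagonal where they are equal. Green points were called in both fits (20), orange ones only without the offset (8) and open ones in neither (16); the changes above 0.5 lie close to the line.

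Another 67 genes of the pathway, from a second list, were read in the same fit. Of 53 tested, 16 rose, 7 fell and 30 were not called, which is 43.4% called beside 31.6% of all tested genes. This list too was chosen with earlier results of these data known, so the share is a description. Among 12 tested antagonists 5 rose and 2 fell: Fstl1 (log2 fold change 0.56, SE 0.03), a follistatin-like glycoprotein, the DAN-family BMP antagonist Nbl1 (1.32, SE 0.10) and Bmper (0.38, SE 0.07), a BMP-binding protein, rose, and the chordin-like Chrdl1 fell (-0.66, SE 0.06), in the direction of Chrd. Of 6 tested receptors and coreceptors 1 was called: Lrrc32, or GARP, which holds latent TGF-beta on the cell surface, rose from 30.2 ± 1.13 CPM to 105 ± 2.67 CPM (log2 fold change 1.79, SE 0.04, adjusted p = 9.1e-22 by edgeR), the largest change of the second list. Of 7 tested genes listed as ligands Bmp3 rose (0.37, SE 0.11), and Bmp5 (-0.22, SE 0.04) and the stress-induced Gdf15 (-0.52, SE 0.04) fell. The 7 include Bmp1, a protease named with the BMPs, which was not called. Of 14 regulators of receptors and SMADs 2 rose, the ubiquitin ligases Smurf1 (0.19, SE 0.05) and Nedd4l (0.14, SE 0.04), and 2 fell, the TGF-beta-induced Pmepa1 (-0.39, SE 0.08) and the SMAD anchor Zfyve9 (-0.13, SE 0.04).

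Targets in the second list did not move as 1 block. Of 14 tested 7 rose, 1 fell and 6 were not called. Ccn2, or connective tissue growth factor, a TGF-beta target, fell from 1494 ± 28.0 to 1032 ± 19.0 CPM (log2 fold change -0.53, SE 0.02, adjusted p = 1.1e-17 by edgeR). Tsc22d1, a TGF-beta-stimulated gene, rose from 555 ± 13.0 to 887 ± 17.6 CPM (0.68, SE 0.02), and Atoh8, a BMP target, from 41.0 ± 1.64 to 56.5 ± 0.388 CPM (0.46, SE 0.04). SMAD phosphorylation and ligand protein were not measured in these libraries.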

How the data were processed

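Stranded mRNA libraries of mouse chondrocytes were measured, 3 per group; sample titles gave group and replicate number. The submitters' processing notes name STAR, an aligner, RSEM, an abundance estimator, DESeq2 and the build mm10. For their versions and settings, and for the annotation, nothing is given in the sources used here. The authors deposited, per transcript, an expected count estimated by RSEM, a TPM scaled by effective length, and transcript and effective lengths in bases, per the file headers.

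Expected counts and TPM were summed per gene identifier and counts were rounded. Of the transcript identifiers 99.14% were in GENCODE M21 (GRCm38, mm10), which gave coordinates. Genes passed edgeR's filterByExpr (minimum count 10, minimum total 15), which kept 14604 genes holding 99.91% of all counts. With TMM normalization, edgeR 4.0.16 (R 4.3.3) fitted group alone with glmQLFit and glmQLFTest, two-sided, with Benjamini-Hochberg adjustment over all tested genes and a threshold of 0.05. SEs and 95% intervals come from that fit; SDs are over 3 libraries. RSEM's uncertainty in sharing reads is not modelled. Totals were 20239626 to 25712667 counts per library; precision is limited by these and by the spread between libraries, which exceeded counting noise.

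The members and lists were chosen with earlier results of these data known. The naming rule gave values per library for called members with a log2 fold change of at least 0.5 in size, for the 3 largest non-overlapping changes in each direction within a role, and for Tgfb1, Bmp2, Smad3, Smad7 and Id1; of the other pathway genes it took up to 4 called ones per role. Some genes of that second list are counted but not reported here by name. Beyond the cell types named with the results, markers of osteoblasts (1 of 4 tested rose, 2 fell), synovial lining (1 of 2 rose) and adipocytes (1 of 1 rose) were read. The synovial marker that rose, Prg4, is also counted among the risen targets of the second list. The other, Tspan15, was not called (log2 fold change -0.775, 95% interval -1.49 to -0.06).

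On simulated counts for M-LPS EVs against M-EVs (14409 genes in the step), the test called 8 of 14209 unchanged genes. It called 22 of 50 genes given a log2 change of 0.25, 42 of 50 by 0.5, 48 of 50 by 1 and 50 of 50 by 2. Every simulated gene had the same dispersion, the median of the data, and few genes were changed. In the data 31.6% of tested genes were called, so these rates need not hold for this comparison. Alternatives were other scalings, filters, an effective length offset, DESeq2 1.42.0, limma 3.58.1 (voom, and trend on log2(TPM + 1) or log2(TPM + 0.1)), a test against a 1.2-fold change, the replicate number as a block, and leaving out each library. Plots used matplotlib 3.10.9.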

Additional observations from a re-analysis of the deposited data

How the results depend on the processing

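Log2 fold changes of the 28 called genes had the same sign under all 19 alternatives. Calls of 10 of them (Acvr1b, Fst, Gdf10, Gdf5, Grem1, Ltbp2, Nog, Tgfb1, Tgfb2 and Tgfbr3) were made under every alternative, and those of 14 under every alternative but the test against a 1.2-fold change. Smad9 was lost under 10 alternatives and Chrd and Smad1 under 9 each, more than any other called gene. The 15 higher and 13 lower members became 12 and 8 with the effective length offset (all genes 1539 and 1328), 8 and 4 in the 1.2-fold test (other pathway genes 9 and 3, all genes 760 and 377), 11 and 7 with limma-trend on log2(TPM + 1) (other pathway genes 10 and 5, all genes 1280 and 1342), 11 and 7 on log2(TPM + 0.1) (all genes 1284 and 1335), and 9 and 5 on log2(TPM + 1) without a filter (other pathway genes 9 and 4, all genes 989 and 943); the cause was not tested, except that the 1.2-fold test asks for larger changes by construction. DESeq2 called 14 and 10 members, without Chrd, Smad1, Smad9 and Skil. Limma-trend with the filter lost Ski, Skil and the 8 genes lost with the length offset. Without a filter it also lost Tgfbr1, Inhba, Bmp7 and Tgif1.

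Leaving out 1 library gave 14 to 15 higher and 10 to 13 lower members, 14 to 17 and 6 to 8 other pathway genes, and 2100 to 2245 and 1878 to 2072 of all genes. Scaling to total counts alone gave 2809 higher and 1859 lower genes, and upper-quartile scaling 2188 and 2495, against 2397 and 2217; the members split 16 and 12, and 15 and 13. Total counts alone called Tgfbr2 (0.07), lost Smad9 and turned Tgfbi to 0.002. The other signs that turned were of uncalled genes: Bmpr1b (-0.022 without M-LPS EVs replicate 1; -0.022 to 0.288 over the libraries left out), Bmpr2 (-0.004 without M-LPS EVs replicate 3; -0.004 to 0.061) and Bmp4 (0.115 with the length offset, 0.082 on log2(TPM + 1) with and without a filter and 0.093 on log2(TPM + 0.1)). Same-numbered libraries did not visibly deviate together (correlations 0.0282, -0.0438 and -0.0189, against -0.0388 to 0.0601 for libraries of different numbers). These values over all genes include counting noise, so they cannot exclude that the numbers pair the libraries. With the replicate number as a block 15 members were higher and 13 lower. Depth limits Gdf6, Acvr2b, Bmp4 and Bmpr1b most.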
